A study of Arabidopsis thaliana with 12 samples.

Results

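The genes described here encode 6 proteins of the plastid ribosome of Arabidopsis thaliana. They are PRPL5 (AT4G01310), PRPL17 (AT3G54210), PRPL29 (AT5G65220) and PRPL34 (AT1G29070) of the large subunit, and PRPS6 (AT1G64510) and PRPS10 (AT3G13120) of the small subunit. They were chosen by name, as the genes on a list of 41 nuclear plastid ribosomal protein genes that an array feature carries alone in the platform annotation. Each has 1 feature, so the group makes up 6 of the 3439 features. Wild-type plants of the Landsberg ecotype had spent 48 hours either in red light at 200 µE (red200) or in white light at 20 µE (white20), and total RNA of each light was put on 6 single-channel arrays. Light colour and light level changed together, so the contrast cannot separate them. The labels give neither the age of the plants nor the tissue, and do not say which plants lie behind an array.

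Plastids carry a ribosome of bacterial type that makes the proteins encoded in the plastid genome, among them core subunits of both photosystems and the large subunit of Rubisco. Some of its proteins are plastid-encoded. The others, including all 6 described here, are encoded in the nucleus, made in the cytosol and imported, and in green tissue their genes are known to be expressed largely in step with one another and with photosynthesis genes. Positions in the particle are known best from Escherichia coli, where L5 binds the small ribosomal RNA of the large subunit, L17 and L29 lie near the exit of the peptide tunnel, L34 binds the main RNA of that subunit, S6 lies on the platform and S10 in the head of the small subunit.

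The deposited intensities were linear, with array medians of 0.233 to 0.471 in red and 0.237 to 0.289 in white light. The share of features listed at 0 was 13.8% to 17% on red arrays and 11.4% to 13.6% on white arrays. Every red array thus had more features at 0 than any white array. The intensities were brought to a common distribution by quantile normalization. Arrays 1 and 2, 3 and 4, and 5 and 6 of each light were near-duplicates, with rank correlations of 0.91 to 0.989, while arrays of different pairs of a light had 0.641 to 0.821. They were averaged to pairs 1, 2 and 3, so that n = 3 per light. Whether the pairs are separate plants or repeat work on one extract is not stated, and the p-values measure only the spread between pairs, which may be technical. All levels below are normalized intensities, and all differences are red minus white on the scale log2(intensity + 0.054), which understates changes of dim features. Adjusted p-values come from limma and are adjusted over 3438 features, with 0.05 as the threshold. In extracts of whole samples, fewer plastid-bearing cells and less RNA per cell cannot be told apart.

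None of the 6 genes passed the threshold between the lights. This is beside 4 of the 3438 features, or 0.116%, that did. PRPL34 and PRPL29 had lower levels in red in all 3 pairs, PRPL5 and PRPL17 had positive mean differences whose pairs did not share a sign, PRPS10 had pairs on both sides of 0, and PRPS6 was at or near 0 throughout. Of the 6 differences 3 lay above and 3 below 0, and their median was -0.0072, next to -0.0078 over all features. The pair means of the 2 lights did not overlap, with red lower, for 2 of the 6, where 9.08% of all features showed this. A lower value in red in all 3 pairs was seen for the same 2, against 19.8% of all features. An unadjusted p under 0.05 was reached by 1 of the 6, PRPL29, and by 13.8% of all features. With the 12 arrays as separate samples, which counts near-duplicates as independent, PRPL29 and PRPL34 passed the threshold and so did 16.4% of all features. With the array number as a block as well, PRPL34 passed and so did 24% of all features. These shares come from a few genes that were chosen with earlier results of the same arrays known.

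**Figure D1:**
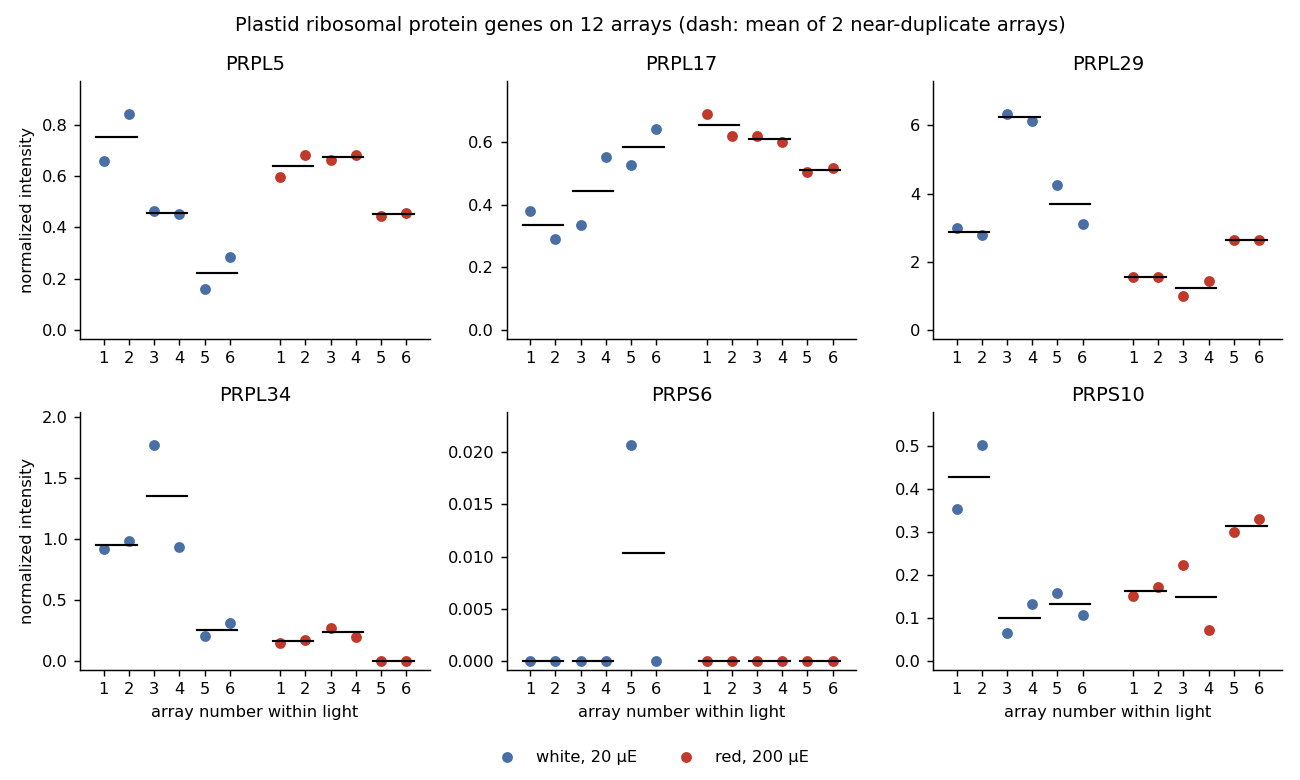
Normalized intensity (y axis, linear, a separate scale per gene) of the 6 genes on each array, with the 6 white arrays on the left and the 6 red arrays on the right of each panel. Points are arrays and black dashes are means of near-duplicate arrays; PRPL29 has all 6 red arrays below all 6 white arrays, and PRPL34 is at 0 on red arrays 5 and 6.

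Among the large subunit proteins, PRPL34 showed the widest difference of the 6. Its level was 0.162, 0.235 and 0 in the red pairs 1, 2 and 3, and 0.951, 1.36 and 0.256 in the white pairs 1, 2 and 3. The highest red pair thus lay just under the lowest white pair, which was pair 3 as was the lowest red one. On single arrays the lights overlapped, since red array 3 stood at 0.27 and white array 5 at 0.203. PRPL34 was listed at 0 on red arrays 5 and 6, which is a listed value and does not show that the transcript was lacking.

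The fitted difference of PRPL34 was -2.32 ± 0.91 (SE, n = 3 pairs per light), an interval of -4.70 to 0.065 at 95% with an adjusted p of 0.373. Only 0.262% of all features had a lower difference. The 3 same-numbered pairs differed by -2.22, -2.23 and -2.50. The nearness of these values depends on the pseudocount, because the red side of pair 3 is at 0. A pseudocount 4 times as large gave pairs of -1.63, -1.75 and -1.12 and a mean of -1.50, and one 4 times as small gave -2.46, -2.40 and -4.29 and a mean of -3.05. The sign was negative in each case, and leaving out red pair 3 gave -1.48. A fit that takes the pair number as a block gave PRPL34 an adjusted p of 0.144, and 0 features passed in that fit. Its unadjusted p in the block fit was 0.000336, and 0.0045 and 0.013 with the larger and the smaller pseudocount. That of PRPL29 was 0.095, and 18.8% of all features had an unadjusted p under 0.05 there. The standard error of PRPL34 in the block fit was 0.10, and 0.17 and 0.53 with the larger and the smaller pseudocount, so it reflects the floor chosen as well as the samples.

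The level of PRPL34 can also be read as a place in the brightness order of an array, which is close to free of scaling. In the white pairs the gene stood at percentiles 84, 88.3 and 42.4 of all features, and in the red pairs at 30.3, 40 and 8.41. White pair 3 thus lay nearer to red pair 2 than to the other white pairs. On the deposited scale the pair differences of PRPL34 were -1.14, -1.55 and -2.29, and the lights overlapped, because red pair 2 had 0.336 and white pair 3 had 0.215 there.

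PRPL29 gave the brightest signal of the 6 on all 12 arrays. Its level was 1.56, 1.23 and 2.64 in the red pairs and 2.89, 6.23 and 3.69 in the white pairs. All 6 red arrays lay below all 6 white arrays, the highest red array at 2.65 and the lowest white array at 2.78; 5.06% of all features were lower in red in this way. The gap between the lights was thus narrow, and red pair 3 came closest to the white samples.

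The difference of PRPL29 was -1.21 ± 0.42 (SE, n = 3 pairs per light), with an interval of -2.32 to -0.10 and an adjusted p of 0.326. Its pairs differed by -0.87, -2.31 and -0.45, so that pair 2 made up most of the mean. In the brightness order of an array, PRPL29 stood at percentiles 91.6, 88.1 and 95.8 in the red pairs. In the white pairs it stood at 96.2, 98.3 and 97, so the lights did not overlap in this order. No share over all features was taken for it. The separation in intensity depended on the scaling. On the deposited scale the levels were 1.65, 1.56 and 3.92 in red and 1.47, 4.50 and 4.41 in white light, which overlap, and pair 1 differed by 0.16. The difference there was -0.50, or -0.70 relative to the median of all features, which that scale shifts to 0.20. With arrays scaled to the same median the difference was -0.91, pair 3 differed by 0.067, and the lights overlapped as well.

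PRPL5 had a level of 0.64, 0.672 and 0.45 in the red pairs and 0.751, 0.458 and 0.223 in the white pairs. The highest sample was a white one and the lowest was too, with the red samples between them. Its difference of 0.40 (interval -0.77 to 1.57, adjusted p = 0.774) was made of pair values of -0.21, 0.51 and 0.90. On the deposited scale all 3 pairs of PRPL5 were positive, at 0.71, 1.19 and 0.88, and the mean was 0.73 relative to the median of all features. Pair 1 therefore turned its sign with the normalization.

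PRPL17 varied least of the 5 genes with signal. Its level was 0.656, 0.612 and 0.512 in the red pairs and 0.336, 0.446 and 0.584 in the white pairs. White pair 3 lay above red pair 3, and the other red pairs lay above all white ones. The difference was 0.39 (interval -0.18 to 0.96, adjusted p = 0.536), with pairs of 0.87, 0.45 and -0.17. Without white pair 1 it was 0.22. Relative to the median of all features it was 0.61 on the deposited scale.

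**Figure D2:**
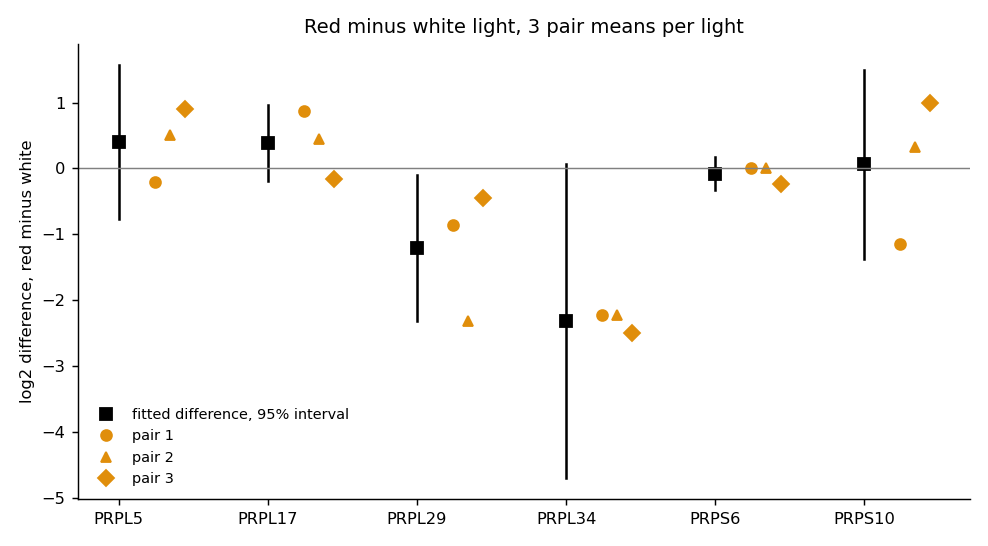
Red minus white difference (y axis, log2) for each gene, with the fitted value as a square, its 95% interval as a bar (not adjusted for the number of features) and the 3 same-numbered pairs as orange symbols. The 3 pairs of PRPL34 lie between -2.50 and -2.22, where pair 3 depends on the pseudocount, its interval runs from -4.70 to 0.065, and the pairs of PRPS10 spread from -1.14 to 1.0.

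Of the small subunit genes, PRPS10 had a level of 0.162, 0.148 and 0.315 in the red pairs and 0.428, 0.0993 and 0.132 in the white pairs. White pair 1 was the highest sample and white pair 2 the lowest. The difference of 0.064 (interval -1.37 to 1.50, adjusted p = 1) averages pairs of -1.14, 0.33 and 1.0. The interval is wide enough to hold a change of either sign as large as that of PRPL29, so the data do not show that PRPS10 was level between the lights.

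PRPS6 was listed at 0 on 6 red and 5 white arrays, and white array 5 had 0.0207, which is under the pseudocount. Its log2 difference of -0.078 (adjusted p = 0.79) comes from that array alone, and no fold is given. Nothing can be said from this feature about PRPS6 transcript. It was the only gene of the 6 left out when the dimmest 25% of features were removed, and with that filter the adjusted p-values of the other 5 ranged from 0.236 to 0.976.

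The 6 proteins belong to one particle, but their features differed widely in brightness. Averaged over the 12 arrays, PRPL29 was brighter than 96.6% of features, PRPL5 than 66.4%, PRPL17 than 65.7%, PRPL34 than 63.1%, PRPS10 than 28.6% and PRPS6 than 8.06%. The signal of a feature depends on its probe as well as on the transcript, so this order is one of signals and not of transcript amounts. What can be compared is how the order changed between samples. PRPL29 held rank 1 in all 6 pair means. PRPL34 held rank 2 of the 6 in white pairs 1 and 2 and rank 3 in white pair 3, but rank 4 or 5 in the red pairs. PRPL17 held rank 2 or 3 in every red pair, and ranks 5, 4 and 2 in white pairs 1, 2 and 3. PRPL5 held ranks 2 to 4 throughout.

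The genes also differed in how much they varied. The SD of the log2 level over the 6 pair means was 0.33 for PRPL17, 0.57 for PRPL5, 0.65 for PRPS10, 0.83 for PRPL29 and 1.67 for PRPL34, next to a median of 0.65 over all features. Only 1.86% of features had a larger SD than PRPL34. Among features at 0 on at most 3 arrays the share was 1.55% and the median SD 0.69. The SD of PRPL34 includes red pair 3, which is at 0, so its value there is set by the pseudocount. Part of the spread of these genes is seen between near-duplicate arrays. Their log2 values differed by a median of 0.08 for PRPL29, 0.11 for PRPL5, 0.20 for PRPL17, 0.27 for PRPL34 and 0.43 for PRPS10, against 0.13 over all features. The near-duplicates of PRPS10 differed by up to 1.12, in red pair 2, so this gene was measured least closely.

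**Figure D3:**
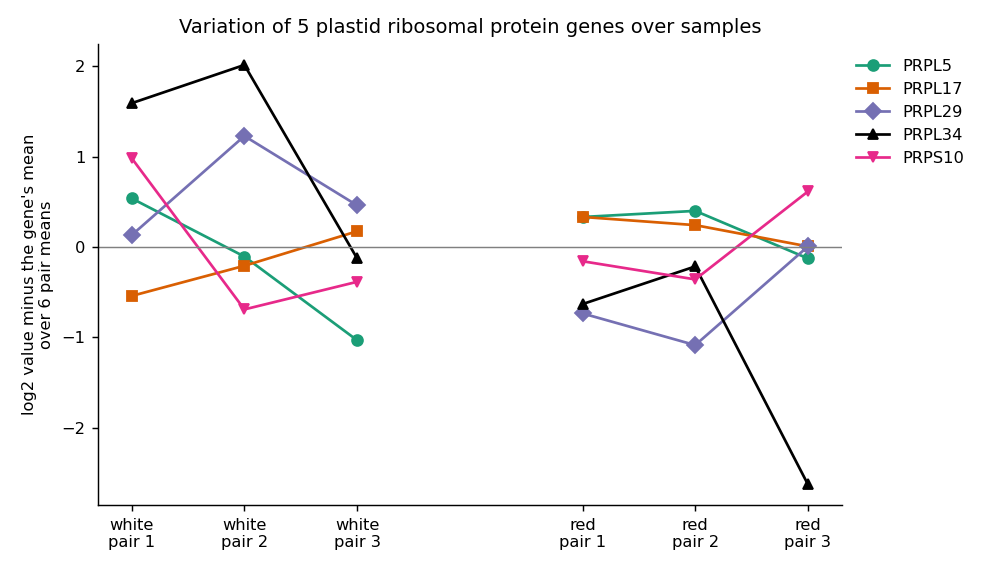
Log2 level of 5 genes minus the gene's own mean over the 6 pair means (y axis) in the 3 white and 3 red pairs; lines join values of 1 gene within a light and imply no order of the pairs. PRPL34 is highest in white pairs 1 and 2 and lowest in red pair 3, while PRPL17 has the smallest SD, 0.33.

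No co-variation of the 5 genes with signal was resolved over the samples, and 6 pair means are too few to show that it was absent. Among their 10 pairings, 3 had a positive Pearson correlation over the 6 pair means. The median r was -0.24, next to a median of 0.032 for these genes with all other features. The highest was that of PRPL29 and PRPL34, with r = 0.48 and Spearman's rho = 0.71 (exact permutation p = 0.343 and 0.136, adjusted over the 10 pairings 0.686 and 0.599). This pairing rested largely on the 2 lights. With the mean of each light taken off, as a description, r was -0.33, and without the 2 samples farthest from the median of PRPL29 it was 0.20.

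The lowest correlation was that of PRPL17 and PRPL34, with r = -0.58 and rho = -0.60 (exact permutation p = 0.231 and 0.242, adjusted 0.686 and 0.599). It turned to 0.78 without the 2 samples farthest from the median of PRPL17, so it rests on those samples. PRPL5 and PRPL34 had r = 0.17 over all samples and 0.77 with the light means taken off. Both had their lowest white level in pair 3 and their lowest red level in pair 3. In red pair 3 PRPL34 was at 0, so its value there is set by the pseudocount. PRPL5 and PRPL17 had r = -0.26, and -0.71 with the light means taken off. The lowest value of that kind was -0.77, for PRPL17 and PRPS10, and 2 of the 10 pairings were then positive. No pairing passed an adjusted p of 0.05 (smallest 0.686 for r and 0.599 for rho).

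A ratio of 2 genes on the same array leaves out most of a factor common to that array. It asks whether the 2 genes changed unequally between the lights. Quantile normalization acts by intensity, so it need not cancel in a ratio. PRPL29 over PRPS10 differed by -1.27 with it and by -0.83 on the deposited scale. In 4 of the 10 such ratios the pair means of the lights did not overlap, and 3 of these 4 involved PRPL34. The log2 ratio of PRPL17 over PRPL34 was -0.60 ± 1.43 in white and 2.11 ± 1.14 in red light (SD, n = 3), a difference of 2.70 with pairs of 3.10, 2.68 and 2.33. That of PRPL5 over PRPL34 was -0.64 ± 0.66 in white and 2.08 ± 1.0 in red light, a difference of 2.72. That of PRPL34 over PRPS10 differed by -2.38, with pairs of -1.08, -2.56 and -3.50. Each had an exact permutation p of 0.1 (two-sided), the smallest that 3 against 3 allows.

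These 3 ratios kept the lights apart on the deposited scale, where the differences were 2.46, 2.59 and -1.99. Their size depended on the pseudocount, since PRPL34 is at 0 in red pair 3. They were 1.79, 1.78 and -1.51 with it 4 times as large and 3.47, 3.50 and -3.15 with it 4 times as small, and the lights did not overlap in either case. They are read against a high background, because the ratio of PRPL34 to 45.8% of the other 2905 features listed at 0 on at most 3 arrays separated the lights too. The shares were 18.5% for ratios to PRPL5, 20.5% for ratios to PRPL17 and 9.19% for ratios to PRPS10. The other ratio of the 4, PRPL17 over PRPL29, differed by 1.60 with pairs of 1.74, 2.76 and 0.29, where 33.8% of features separated the lights in their ratio to PRPL29 alone. On the deposited scale its lights overlapped. PRPL29 over PRPL34, both lower in red, differed by 1.11 with pairs of 1.36, -0.084 and 2.05 (exact permutation p = 0.6). The last of these is against the PRPL34 value of 0, and the difference of this ratio was 0.36 and 1.82 with the larger and the smaller pseudocount. PRPL5 over PRPL17 differed by 0.016, but with pairs of -1.08, 0.056 and 1.07, so their equal means hide unequal samples.

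**Figure D4:**
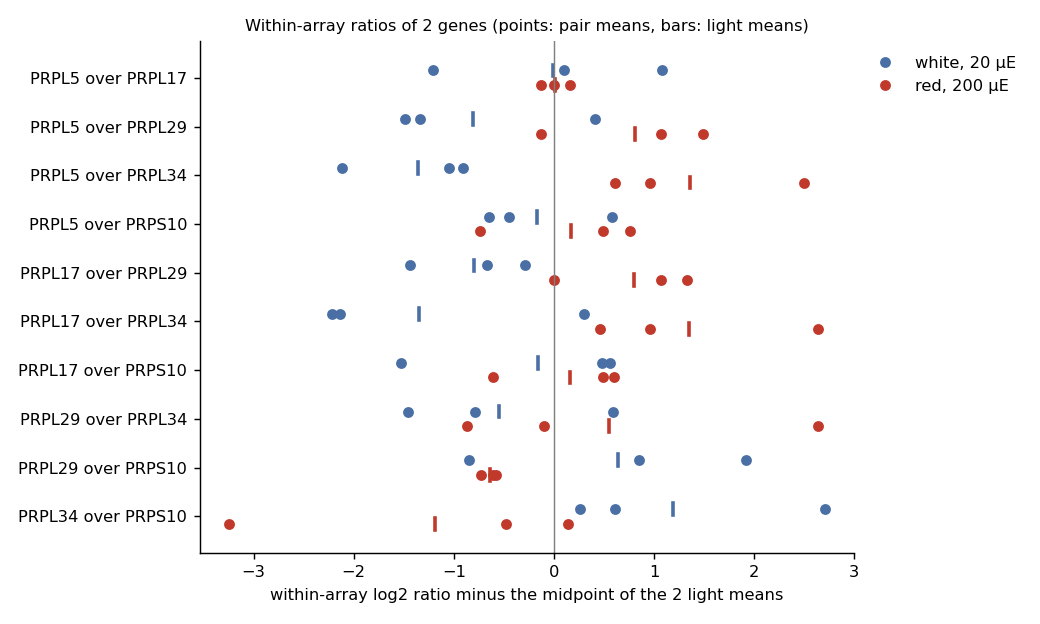
Within-array log2 ratio of 2 genes, minus the midpoint of the means of the lights (x axis), for the 10 pairings of 5 genes; points are pair means and short bars light means, blue for white and red for red light. PRPL5 over PRPL34, PRPL17 over PRPL34, PRPL17 over PRPL29 and PRPL34 over PRPS10 have no overlap between the lights.

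Red pair 3 was an extreme of the red samples in several of these genes. Among 3 samples this is common, and no share over all features was taken. It had the lowest level of PRPL5, PRPL17 and PRPL34 and the highest of PRPL29 and PRPS10. With arrays scaled to the same median it was not the lowest of PRPL17, at 0.598, 0.616 and 0.608 in red pairs 1, 2 and 3. White pair 3 was lowest for PRPL5 and PRPL34, highest for PRPL17 and in the middle for PRPL29 and PRPS10. Red arrays 5 and 6 also had the lowest deposited medians of the red arrays, 0.237 and 0.233, and their part in these levels was not tested. Without arrays 5 and 6 of both lights, an alternative chosen after seeing the data, the differences of PRPL34 and PRPL29 were -2.01 and -1.42 (adjusted p = 0.191 and 0.305). That of PRPL17 was 0.60 (adjusted p = 0.241), that of PRPL5 was 0.14, and that of PRPS10 turned to -0.38.

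For each of the 5 genes the other genes with the most similar course over the 6 pair means were sought among 575 genes on features with 1 gene and at most 3 zeros. PRPL34 was most like SECE1 (AT4G14870), a subunit of the plastid Sec protein translocase, with r = 0.99, and AT1G32220, with r = 0.98. Those 2 genes had differences of -1.21 and -1.54 between the lights. PRPL34 also had r above 0.9 with 26 of the 575 genes in all, against 8 for PRPL5, 6 for PRPL17, 5 for PRPL29 and 2 for PRPS10. The course of PRPL34 includes red pair 3, where its value is set by the pseudocount. No such count was taken for other features. The r values printed here are the highest in a search over many genes with 6 samples, and they are given as a description with no test.

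PRPL29 was most like AT5G66530 and AT5G66050, with r = 0.96 and 0.95 and differences of -0.74 and -1.03. PRPS10 was most like THIC (AT2G29630), which makes the pyrimidine part of thiamin in the plastid, and AT4G02580, with r = 0.98 and 0.97. PRPL5 was most like AT2G19870 and AT4G09620, both with r = 0.96. PRPL17 was most like AT5G03370 and the glycosyl hydrolase gene GH9B16 (AT4G38990), with r = 0.98 and 0.93. None of these 10 genes passed the threshold between the lights, and no gene was named for more than 1 ribosomal protein gene.

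Few other genes of plastid gene expression were looked for. Of 15 genes of plastid translation factors and ribosome assembly and 13 of plastid transcription, 0 were on features listed with 1 gene, and the same held for 7 seed storage and senescence genes that would mark other tissue or state. A search of the RefSeq synonyms of the named features for ribosomal proteins gave 0 further genes. The gene descriptions were not searched, so this does not show that no other ribosomal protein gene was on these features. RNA processing, tRNA synthetases and translation outside the plastid were not searched, and the other 35 genes of the plastid ribosomal list were not analysed here.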

How the data were processed

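The authors deposited 1 table of linear intensity values for 3439 features on 12 arrays. No source used here gives the background correction, the floor at 0 or the scaling. The ratio of the highest to the lowest array median was 2.02. Features were named from GEO's platform annotation, where 692 carry 1 gene, 870 several and 1877 are not listed. Of the 692, 690 matched the RefSeq table of assembly TAIR10.1 by Entrez identifier. Quantile normalization (limma 3.58.1, R 4.3.3) and log2(intensity + 0.054) followed, with the pseudocount at percentile 5 of the positive deposited values. Features of the same gene were averaged, and near-duplicate arrays were averaged on the log2 scale. Red and white light were compared with lmFit and eBayes on 3 pair means each (4 residual degrees of freedom) and Benjamini-Hochberg adjustment. The fit was tested on simulated data with independent normal noise, no floor at 0 and no effect shared by a pair. It was therefore not tested for data with such features.

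Same-numbered pair means of the 2 lights deviated together, with r = 0.125, 0.466 and 0.376 for pairs 1, 2 and 3. The highest r of these red pairs with a white pair of another number was -0.046, 0.068 and -0.145. The same-numbered r was lowest for pair 1. The numbers were therefore taken to pair the samples, from the data and not the labels, but the reported fit and the permutation tests have no pair term. The pairing enters through the pair differences and the block fit. The 6 genes and the lists were chosen with earlier results of these data known. All 6 are described, together with all measured list genes and, for each gene at 0 on at most 3 arrays, the 2 genes with the highest r. Within-array ratios were added after the values were seen. No sequences were used here. Precision is limited by the number of pairs, which may not be separate plants.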

Additional observations from a re-analysis of the deposited data

How the results depend on the processing

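None of the 6 genes passed the threshold in the reported fit, and this held in all alternatives but those that take the 12 arrays as separate samples, which count near-duplicates as independent and so give p-values that are too small. There PRPL29 (-1.21, adjusted p = 0.0174) and PRPL34 (-2.32, adjusted p = 0.0273) passed, and with the replicate block by array number PRPL34 passed (-2.32, adjusted p = 0.000414). With the pair number as a replicate block on pair means no gene of the 6 changed its call, but the count of features past the threshold went from 4 to 0, and was 0 in that fit with the pseudocount 4 times as large or as small (added after seeing the data). That count was 27 on the deposited scale, 1 after scaling arrays to a common median, 2 at a pseudocount 4 times as large, 1 without the dimmest 25%, 105 with near-duplicates as a random block, 564 with 12 separate arrays and 826 with these and the replicate block. It was 0 without arrays 5 and 6 of both lights and 0 to 5 with 1 array or 1 pair left out (0 without white array 1, 2 without white array 5, 0 without each pair but white pair 3, where it was 2). The directions of PRPL17, PRPL29 and PRPL34 did not turn in the 30 alternatives run. Those that only add a block, take arrays as separate samples or drop dim features leave the estimate as it was and could not turn it. Leaving out 1 array keeps its near-duplicate in the fit. The count of 30 is therefore no measure of how firm the directions are. PRPL17 ranged from 0.22 to 0.56 with 1 array or pair left out. PRPS10 turned to -0.38 without arrays 5 and 6 of both lights and ranged from -0.27 to 0.60 with 1 array or pair left out. PRPL5 ranged from -0.014, without white pair 3, to 0.80, without white pair 1. The median r over the 10 pairings stayed between -0.41 and -0.11, and the cause of these shifts was not tested. The depth of signal over background is not known.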
